A study of Mus musculus with 17 samples.

Results

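A knockout of Mef2d (KO) in cells of early hepatocellular carcinoma (HCC) was compared with wild-type Mef2d (WT) in such cells, across the 17140 genes of the table that pairs them. The comparison uses 6 of the study's 17 libraries, 3 KO and 3 WT, chosen by the genotype in the sample labels. Both groups are labelled as early HCC from mice induced with DEN, in liver work usually the carcinogen diethylnitrosamine. The labels give neither strain nor age, and do not say which part of Mef2d was altered, in which cells of the animal, or whether the 3 libraries per group are different animals, different cultures or neither. The worksheet heading of these values names H22, as a mouse hepatoma line is called, and also C1C17 and AML, which the labels do not explain. It names sh against ctrl in place of KO against WT. The sample labels were followed here, and the origin of the cells was not tested. The p-values therefore rest on a spread among libraries that may be purely technical.

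MEF2D is a transcription factor of the MADS-box family and binds an A/T-rich DNA element. MEF2 factors are held inactive by class IIa histone deacetylases and are released by calcium and kinase signals. They are best known for contractile genes in muscle, activity-dependent genes in neurons and immediate early genes such as Jun.

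Levels are given in CPM, which is a gene's share of the scaled library total, and means are ± SD over the 3 libraries of a group. Mef2d (chr3:88141941-88172091) was at 69.5, 64.2 and 66.3 CPM in KO libraries, against 99.8, 98.3 and 105 CPM in WT libraries. Every KO library was thus below every WT library, and a large part of the WT level was still counted in KO cells. The means were 66.7 ± 2.68 CPM in KO cells, against 101 ± 3.55 CPM in WT cells, a log2 fold change of -0.60 ± 0.04 (SE), or 1.52-fold lower (edgeR adjusted p = 7.17e-09). Gene-level counts cannot tell whether the transcripts still present yield complete protein.

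The libraries held 16604606 to 17683298 expected counts and detected 15050 to 15365 genes each. Markers of hepatocytes were almost absent: 1 of 15 with a row reached 1 CPM, and their summed level was 4.03 to 8.01 CPM in KO and 6.13 to 6.32 CPM in WT libraries, against 208 to 221 CPM in the normal liver libraries of a separately scaled table. Albumin averaged 0.0959 CPM in KO cells, against 0.134 CPM in WT cells. Of 8 cholangiocyte markers, 4 reached 1 CPM in KO and 3 in WT cells, with sums of 1756 to 1815 CPM in KO and 1349 to 1460 CPM in WT libraries, most of it Spp1 (osteopontin). Of 12 pan-leukocyte markers, 5 reached 1 CPM in each group, with sums of 790 to 808 CPM in KO and 1181 to 1235 CPM in WT libraries. Most of that was the actin bundler Lcp1 and the integrin Itgb2, while Ptprc (CD45) was at 0.0948 CPM in KO cells, against 0.0954 CPM in WT cells. Of 11 macrophage markers, 3 reached 1 CPM in each group, with sums of 21.6 to 23.0 CPM in KO and 14.1 to 15.8 CPM in WT libraries. The macrophage receptor Adgre1 (F4/80) was at 0.0382 CPM in KO cells, against 0.0964 CPM in WT cells. Sums for endothelial markers were 64.9 to 72.8 CPM in KO and 51.3 to 62.6 CPM in WT libraries, mostly Stab1. The stellate, T and NK, B, neutrophil and erythroid lists summed to at most 11.9 CPM in a KO library and 16.2 CPM in a WT library. In bulk RNA, fewer cells of a type and less RNA per cell cannot be told apart, and the part of these marker differences in the results was not tested.

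Of 12093 genes tested, 7800 (64.5%) differed at a Benjamini-Hochberg adjusted p under 0.05 in edgeR's quasi-likelihood test. In KO cells 3911 (32.3%) were higher and 3889 (32.2%) lower, and for 8286 genes (68.5%) the libraries of the groups did not overlap. Most differences were small, with a median absolute log2 fold change of 0.277 and a median log2 fold change of -0.003. Called with at least a 2-fold difference were 926 genes (7.66%), of which 438 (3.62%) were higher and 488 (4.04%) lower. At least 4-fold were 113 higher and 120 lower. Every count of a gene group below over all chromosomes is to be read against the 32.3% higher and 32.2% lower of all tested genes. The share called also depended on level. It was 30.1% of genes averaging under 1 CPM, 50.6% at 1 to 10 CPM, 70.0% at 10 to 100 CPM and 73.6% at 100 to 1000 CPM. Lists of abundant genes are thus called more often in either direction. Counts outside chromosomes 4, 7 and 9, whose medians stood apart (below), have another background. There 2773 of 9746 tested genes were higher and 3277 lower (62.1% called).

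**Figure D1:**
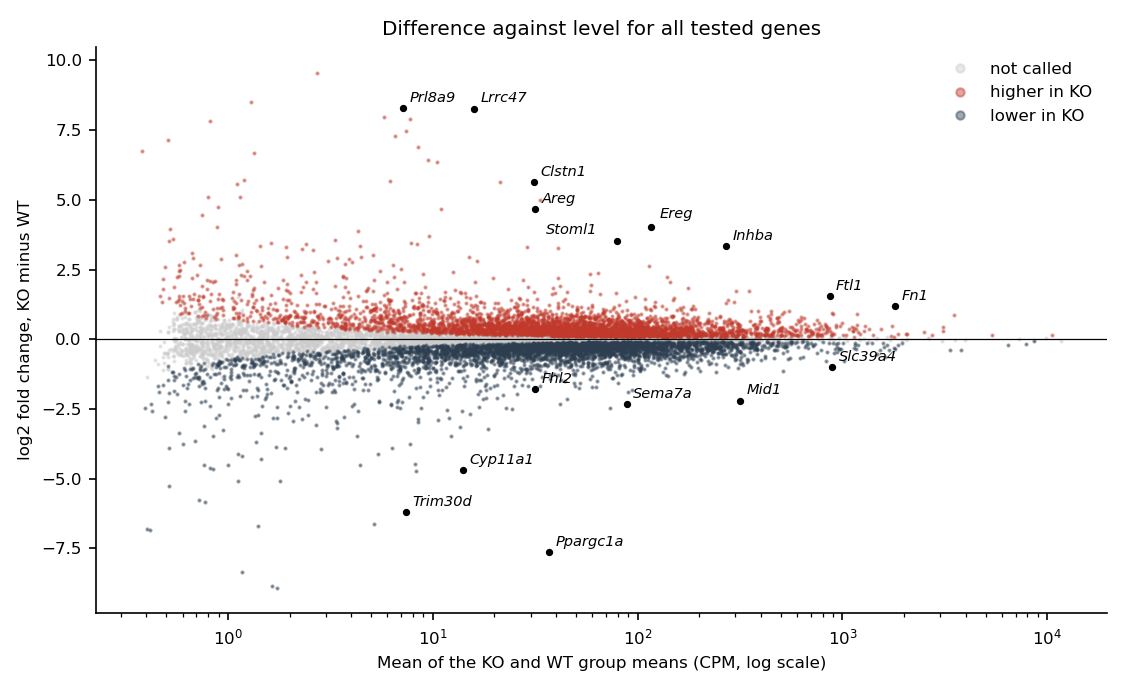
Each point is 1 of the 12093 tested genes, with the mean of the KO and WT group means in CPM on a log axis and the log2 fold change (KO minus WT) on the vertical axis. Ppargc1a lies at -7.62 and Inhba at 3.33, while the median gene lies at -0.003.

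Among genes that reached 10 CPM in every WT library, the largest fall was that of Ppargc1a, which encodes PGC-1 alpha, a coactivator of mitochondrial and gluconeogenic genes whose promoter MEF2 factors bind in muscle. It had 0.346, 0.469 and 0.292 CPM in KO libraries, against 71.2, 73.4 and 75.7 CPM in WT libraries. The KO libraries were close to the level of 3 counts (0.170 to 0.181 CPM), and the log2 fold change was -7.62 ± 0.11 (edgeR adjusted p = 1.19e-16). Among genes averaging at least 200 CPM over the 6 libraries, the largest fall was that of Mid1, a microtubule-bound ubiquitin ligase on the X chromosome, with 113, 127 and 98.8 CPM in KO libraries, against 481, 521 and 555 CPM in WT libraries. This was a 4.59-fold difference with a wide gap between the groups. Also lower among genes of that abundance were Atp1b1, a subunit of the sodium pump (2.24-fold), Xdh, xanthine dehydrogenase (2.18-fold), Apobr, a lipoprotein receptor (1.98-fold), Bace1, the beta-secretase (2.05-fold), and Aplp2, a homologue of the amyloid precursor (1.90-fold). The zinc importer Slc39a4 was at 598 ± 16.7 CPM in KO cells, against 1186 ± 62.6 CPM in WT cells. Among the 15 largest falls of genes above 10 CPM in WT libraries were also Vwa5a, at 0.597 ± 0.171 CPM in KO cells, against 16.01 ± 0.828 CPM in WT cells, the meiotic recombination gene Rec114, at 0.695 ± 0.176 CPM in KO cells, against 15.7 ± 0.785 CPM in WT cells, and the glutathione transferase Gstm2, at 2.70 ± 0.283 CPM in KO cells, against 24.3 ± 0.917 CPM in WT cells.

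Several genes of secreted signals were higher. Inhba, which encodes the beta A subunit of activin A, a TGF-beta family ligand, had 501, 514 and 467 CPM in KO libraries, against 52.1, 48.3 and 47.3 CPM in WT libraries. The groups were far apart, with a log2 fold change of 3.33 ± 0.05, or 10.04-fold (edgeR adjusted p = 1.19e-16). Ereg and Areg are neighbours on chromosome 5 and encode epiregulin and amphiregulin, ligands of the EGF receptor. Ereg had 222, 219 and 214 CPM in KO libraries, against 14.4, 13.4 and 12.2 CPM in WT libraries. Areg had 64.1, 59.5 and 59.4 CPM in KO libraries, against 2.03, 3.05 and 2.10 CPM in WT libraries. Both were higher in every KO library, 16.4-fold for Ereg and 25.4-fold for Areg, while their neighbour Btc, a further ligand of the same receptor, was not called, at 1.79 ± 0.411 CPM in KO cells, against 1.52 ± 0.409 CPM in WT cells (edgeR adjusted p = 0.465).

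Both ferritin chains, which store iron, were higher. The ferritin light chain gene Ftl1 had 1306, 1235 and 1335 CPM in KO libraries, against 427, 434 and 459 CPM in WT libraries. The heavy chain gene Fth1 was at 4545 ± 45.3 CPM in KO cells, against 2462 ± 53.0 CPM in WT cells, so that the light chain differed more (2.94-fold) than the heavy chain (1.85-fold). Ferritin genes have processed copies in the genome, and their reads may be shared with these. Col7a1, the collagen of anchoring fibrils, had 239.9, 236 and 225 CPM in KO libraries, against 57.0, 59.9 and 50.6 CPM in WT libraries. Its groups were separated by more than the spread in either. Of 21 tested collagens, 4 were higher and 7 lower (median -0.22), and outside chromosomes 4, 7 and 9, whose medians stood apart (below), 2 were higher and 7 lower of 18. Fibronectin (Fn1) was 2.26-fold higher, at 2512 ± 53.1 CPM in KO cells, against 1111 ± 51.1 CPM in WT cells. The secreted proteoglycan tsukushi (Tsku, 2.46-fold) and the calcium sensor of vesicle release Syt7 (2.496-fold) were also higher, as were the olfactory receptor gene Olfr1033 (3.29-fold) and the cilia gene Cfap53 (3.28-fold). Ereg, Btc and Fth1 are not among the genes that the naming rule selects, and were picked with their values in view.

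**Figure D2:**
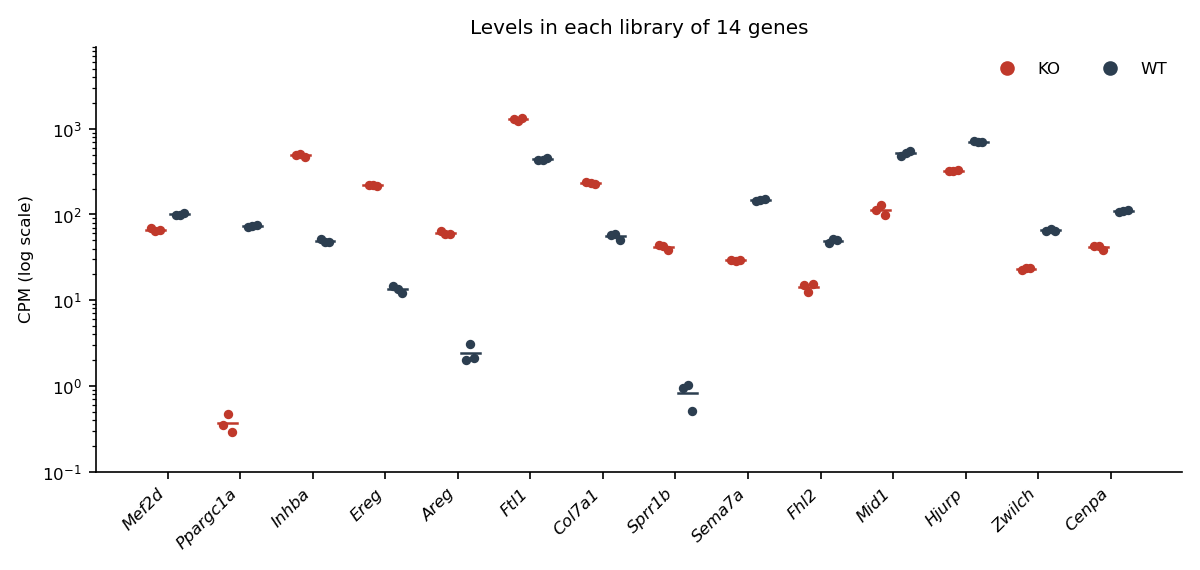
CPM on a log axis of 14 genes in the 3 KO libraries (red, left of each pair) and the 3 WT libraries (dark, right), with a line at each group mean. The groups of each gene shown are separated, narrowly for Mef2d (KO 64.2 to 69.5 CPM) and widely for Ppargc1a (KO 0.292 to 0.469 CPM).

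Promoter windows, from 250 bases before to 50 after a RefSeq transcription start (GRCm38.p6), were matched for 9726 of the tested genes. A few are printed because they hold the MEF2 element, the site that MEF2D binds: Inhba (chr13:16011601-16011900, plus strand) as the strongest rise among them, Arhgdib (chr6:136941850-136942149, minus strand) and Fhl2 (chr1:43196712-43197011, minus strand) as clear falls, and Klf2 (chr8:72318812-72319111, plus strand) and Jun (chr4:95052173-95052472, minus strand) as genes reported as MEF2 targets. Areg (chr5:91139349-91139648, plus strand) is shown for its cyclic AMP response element, TGACGTCA. Sequences run 5' to 3' on the gene's strand, with the MEF2 element, or for Areg the cyclic AMP response element, in capitals, which in Arhgdib cover 2 separate matches.
Inhba: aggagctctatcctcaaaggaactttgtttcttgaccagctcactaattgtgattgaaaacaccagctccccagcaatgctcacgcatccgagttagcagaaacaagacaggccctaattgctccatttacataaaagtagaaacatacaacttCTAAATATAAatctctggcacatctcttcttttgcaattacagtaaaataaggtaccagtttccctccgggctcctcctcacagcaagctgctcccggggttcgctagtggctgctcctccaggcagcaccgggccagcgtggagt
Arhgdib: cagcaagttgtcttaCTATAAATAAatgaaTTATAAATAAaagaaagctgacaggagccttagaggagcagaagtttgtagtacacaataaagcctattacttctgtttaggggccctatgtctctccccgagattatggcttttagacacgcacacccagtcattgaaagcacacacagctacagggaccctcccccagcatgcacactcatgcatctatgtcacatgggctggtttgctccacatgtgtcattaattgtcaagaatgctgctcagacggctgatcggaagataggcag
Fhl2: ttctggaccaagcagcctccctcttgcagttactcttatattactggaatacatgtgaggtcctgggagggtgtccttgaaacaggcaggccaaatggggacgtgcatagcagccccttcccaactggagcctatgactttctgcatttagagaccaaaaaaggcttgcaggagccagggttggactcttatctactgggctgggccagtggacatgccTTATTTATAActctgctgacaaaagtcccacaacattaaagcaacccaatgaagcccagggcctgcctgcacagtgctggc
Klf2: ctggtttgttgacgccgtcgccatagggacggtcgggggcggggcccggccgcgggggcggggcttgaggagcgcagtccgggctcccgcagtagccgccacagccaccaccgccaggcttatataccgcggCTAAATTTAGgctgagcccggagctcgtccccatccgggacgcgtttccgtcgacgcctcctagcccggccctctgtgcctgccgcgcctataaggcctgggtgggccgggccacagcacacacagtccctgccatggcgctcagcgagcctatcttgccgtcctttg
Jun: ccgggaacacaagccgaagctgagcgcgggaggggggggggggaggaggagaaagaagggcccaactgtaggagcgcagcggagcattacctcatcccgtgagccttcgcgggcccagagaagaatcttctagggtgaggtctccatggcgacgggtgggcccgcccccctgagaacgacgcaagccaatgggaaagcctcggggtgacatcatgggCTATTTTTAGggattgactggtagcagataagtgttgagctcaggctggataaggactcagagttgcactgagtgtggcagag
Areg: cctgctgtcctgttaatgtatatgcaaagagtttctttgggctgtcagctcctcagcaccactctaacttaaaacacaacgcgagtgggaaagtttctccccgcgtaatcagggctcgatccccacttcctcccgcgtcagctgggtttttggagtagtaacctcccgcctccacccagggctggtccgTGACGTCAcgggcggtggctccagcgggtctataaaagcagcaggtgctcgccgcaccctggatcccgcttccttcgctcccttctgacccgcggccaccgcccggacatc

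Genes with a MEF2 element in the window differed in both directions. The element begins 96 bases before the start in Inhba, which rose, and 31 bases before it in Fhl2, a LIM-domain cofactor of heart and skeletal muscle, which fell. Fhl2 had 14.9, 12.3 and 15.3 CPM in KO libraries, against 46.2, 51.2 and 50.2 CPM in WT libraries. Arhgdib was 5.34-fold lower, at 2.11 ± 0.645 CPM in KO cells, against 11.3 ± 0.763 CPM in WT cells. Klf2, a zinc finger factor of endothelial cells and lymphocytes, was lower at 0.577 ± 0.116 CPM in KO cells, against 1.48 ± 0.197 CPM in WT cells. The element of Jun, a subunit of AP-1, begins 33 bases before the start, and Jun had 8.18, 9.44 and 8.05 CPM in KO libraries, against 9.84, 11.5 and 9.81 CPM in WT libraries. The groups were close but did not overlap, with a log2 fold change of -0.28 ± 0.10 (edgeR adjusted p = 0.0218). Jun was no longer called with DESeq2, nor in edgeR without KO library 1 (log2 fold change -0.25), KO library 3 (-0.24) or WT library 2 (-0.20).

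Over all windows and both strands, the MEF2 element occurred in 6 of 339 genes at least 2-fold higher (1.77%), in 11 of 357 at least 2-fold lower (3.08%) and in 186 of all 9726 (1.91%). The difference between the first 2 shares rests on few genes and on the filter: without a filter on low counts the shares were 3.14% of the genes at least 2-fold higher and 3.11% of those at least 2-fold lower, and with at least 10 CPM in 3 libraries they were 1.3% and 4.38%, in that order. The genes at least 2-fold higher were Inhba, Filip1l, Atf3, Ccdc155, Gm30698 and Cp. Those at least 2-fold lower included Arhgdib, Fhl2, Klf2, Limch1, Speg, Naip5, Il18, Elmo2 and cyclin B2 (Ccnb2). Atf3, a stress-induced factor, was at 36.3 ± 0.424 CPM in KO cells, against 10.3 ± 0.843 CPM in WT cells, and Ccnb2 at 40.9 ± 1.84 CPM in KO cells, against 108 ± 2.30 CPM in WT cells. Those not selected by the naming rule, Atf3 and Ccnb2 among them, were picked with their values in view. The AP-1 site (TGACTCA or TGAGTCA) occurred in 8.26% of the genes at least 2-fold higher, 7.56% of those at least 2-fold lower and 4.82% of all. Shares in the same order were 2.65%, 1.40% and 3.56% for the cyclic AMP response element, 2.95%, 1.40% and 1.41% for the CArG box, and 18.9%, 17.9% and 14.5% for the cell cycle element TTTGAA. Motifs were counted separately and may overlap. The windows matched for Ppargc1a and Mef2d held no MEF2 element, which says only that these letters are not in those windows.

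Of 18 tested genes reported as MEF2 targets in muscle, neurons or lymphocytes, 5 were higher and 7 lower, with a median log2 fold change of -0.20 against -0.003 over all tested genes. Outside chromosomes 4, 7 and 9 the counts were 3 higher and 6 lower of 15. Besides Ppargc1a and Klf2, the muscle filament gene Des was lower at 6.11 ± 0.544 CPM in KO cells, against 10.4 ± 2.78 CPM in WT cells, and the orphan nuclear receptor Nr4a1 at 11.7 ± 0.958 CPM in KO cells, against 18.3 ± 0.929 CPM in WT cells. The Krüppel-like factors Klf4 and Klf6 were higher, Klf4 with 82.6, 75.6 and 80.6 CPM in KO libraries, against 41.9, 36.6 and 39.1 CPM in WT libraries. Klf6 was 1.57-fold higher. Mef2a, a close relative of Mef2d, was 1.37-fold higher. It lies on chromosome 7, where many genes were higher (below), and whether its rise differs from theirs was not tested.

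Of 21 tested genes of the actin cytoskeleton and SRF targets, 12 were lower and 5 higher (median -0.15). Besides Fhl2, the myosin light chain kinase Mylk was 2.24-fold lower, and the tropomyosin Tpm1 was at 220.4 ± 6.19 CPM in KO cells, against 410.3 ± 7.51 CPM in WT cells. The actin crosslinker filamin A (Flna) was higher, at 1096 ± 22.9 CPM in KO cells, against 763 ± 22.5 CPM in WT cells.

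Genes of cell division were lower in large majority. Of 39 tested genes of the centromere, kinetochore and spindle checkpoint, 34 were lower and 2 higher, with a median log2 fold change of -0.50. Zwilch, part of the complex that recruits dynein to kinetochores, had 22.7, 23.7 and 23.6 CPM in KO libraries, against 64.4, 67.2 and 64.6 CPM in WT libraries. The centromeric histone Cenpa had 42.7, 43.1 and 38.8 CPM in KO libraries, against 107, 111 and 112 CPM in WT libraries. Its chaperone Hjurp was at 323 ± 5.04 CPM in KO cells, against 707 ± 6.98 CPM in WT cells, and the centromeric cohesin protector Sgo2a at 65.7 ± 1.80 CPM in KO cells, against 135 ± 5.62 CPM in WT cells. None of these genes had overlapping groups. The 2 that were higher, Cdca8 of the chromosomal passenger complex (1.22-fold) and Zwint (1.09-fold), differed by far less, and Zwint was no longer called without KO library 1 or WT library 1, which left 1 higher.

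Replication and repair genes followed the same direction. Of 33 tested DNA replication genes, 24 were lower and 3 higher (median -0.27). Lower were the helicase subunits Mcm3, with 121, 124 and 124 CPM in KO libraries, against 230.2, 235 and 236 CPM in WT libraries, and Mcm6 (1.44-fold). The 3 higher, Orc1, Rpa2 and Pold1, lie on chromosomes 4 and 7, and Pold1 was no longer called without KO library 3. Of 44 tested DNA repair and checkpoint genes, 27 were lower and 10 higher (median -0.26). The Fanconi anaemia protein Fancd2 was at 41.0 ± 0.268 CPM in KO cells, against 79.4 ± 0.634 CPM in WT cells, and the checkpoint kinase Chek1 at 40.9 ± 1.03 CPM in KO cells, against 66.8 ± 4.37 CPM in WT cells, while the nucleotide excision repair genes Xpc (1.94-fold) and Ercc1 (1.95-fold) were higher. Of 28 tested kinesins, 16 were lower, led by the cytokinesis motor Kif23 (2.36-fold), and 4 higher. Outside chromosomes 4, 7 and 9, whose medians stood apart (below), the counts were 30 lower and 1 higher of 33 kinetochore genes, and 23 and 0 of 29 replication genes. In the same order they were 19 and 6 of 31 repair genes, and 12 and 3 of 21 kinesins.

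**Figure D3:**
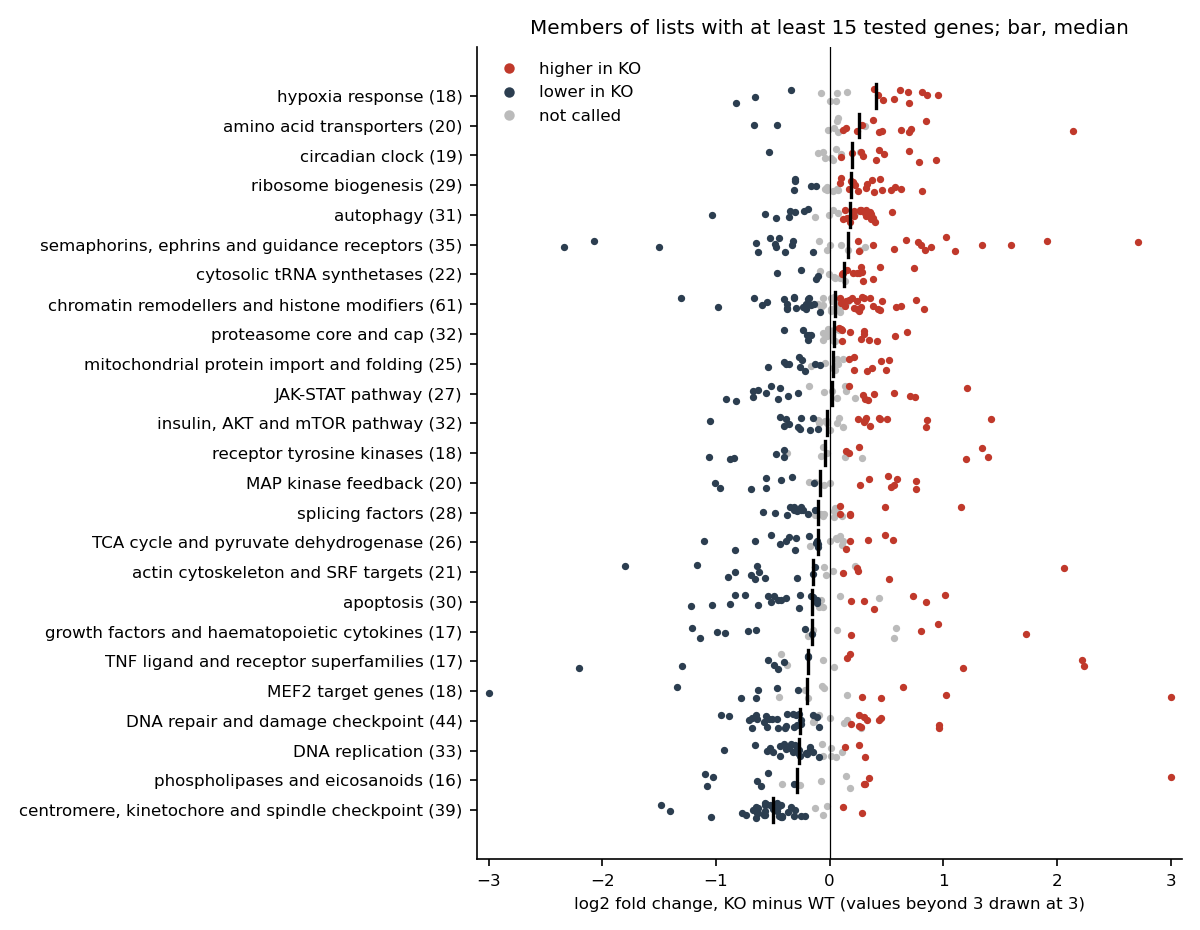
Log2 fold change (KO minus WT) of each tested member of lists with at least 15 tested genes, red where higher in KO, dark where lower, grey where not called, with a bar at the list's median. Lists run from the lowest median (centromere and kinetochore, -0.50) to the highest (hypoxia response, 0.40), and most lists have members in both directions.

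Genes of ribosome biogenesis, cytosolic tRNA synthetases, amino acid transporters and autophagy were more often higher than lower. Mitochondrial ribosomal proteins split, with 22 higher and 20 lower of 78 tested (median 0.01). Of 29 tested ribosome biogenesis genes, 18 were higher and 5 lower (median 0.19), with Heatr1 of the small subunit processome at 265 ± 0.648 CPM in KO cells, against 178 ± 5.58 CPM in WT cells, and the nucleolar methylase fibrillarin (Fbl) at 200.5 ± 8.17 CPM in KO cells, against 129.6 ± 6.77 CPM in WT cells. Nucleolin (Ncl) was lower, at 1595 ± 96.0 CPM in KO cells, against 1971 ± 95.2 CPM in WT cells. Of 20 tested amino acid transporters, 12 were higher and 2 lower (median 0.26). The cystine importer Slc7a11 had 343, 350.3 and 343 CPM in KO libraries, against 215, 204 and 214 CPM in WT libraries, and the glycine transporter Slc6a9 was 1.80-fold higher. Of 22 tested cytosolic tRNA synthetases, 12 were higher and 4 lower (median 0.13), all by under 2-fold, with Eprs at 1314 ± 20.03 CPM in KO cells, against 1009 ± 14.6 CPM in WT cells. Of 9 tested genes of the MYC network, 6 were higher and 1 lower, or 3 lower without WT library 1: Myc was at 167 ± 4.47 CPM in KO cells, against 117 ± 7.94 CPM in WT cells, and Mxd1, which encodes an antagonist of MYC, at 47.1 ± 2.15 CPM in KO cells, against 17.5 ± 1.90 CPM in WT cells.

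Of 31 tested autophagy genes, 18 were higher and 8 lower (median 0.18). The cargo receptor p62 (Sqstm1) was at 702 ± 26.2 CPM in KO cells, against 479 ± 19.24 CPM in WT cells, and Tfeb, the transcription factor of lysosomal genes, was lower at 7.63 ± 0.329 CPM in KO cells, against 15.6 ± 1.04 CPM in WT cells. Of 18 tested hypoxia response genes, 10 were higher and 3 lower (median 0.40). Vascular endothelial growth factor A (Vegfa) had 1195, 1161 and 1166 CPM in KO libraries, against 614, 604 and 599 CPM in WT libraries, a 1.94-fold rise, and Ndrg1 was 1.75-fold higher. The genes lower were Epas1, which encodes HIF-2 alpha (1.77-fold), Pdk1 (1.58-fold) and Pfkfb3 (1.27-fold). Of 19 tested circadian clock genes, 10 were higher and 1 lower (median 0.20). The repressors Bhlhe40 (1.62-fold) and Bhlhe41 (1.73-fold) and the core components Per3 (1.92-fold) and Cry1 (1.39-fold) were higher, and Per2, at 10.1 ± 0.698 CPM in KO cells, against 14.6 ± 1.46 CPM in WT cells, was lower.

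Growth factor signals, receptors and their feedback genes split. Of 17 tested growth factors and haematopoietic cytokines, 4 were higher, among them Vegfa, the platelet-derived growth factors Pdgfc (3.30-fold) and Pdgfb (1.75-fold), and Lif, and 8 were lower, among them Il34, a ligand of the CSF1 receptor (2.31-fold), and thrombopoietin (Thpo, 2.21-fold). Of 18 tested receptor tyrosine kinases, 6 were higher and 6 lower, or 3 and 5 of 13 outside chromosomes 4, 7 and 9. The IGF1 receptor (Igf1r) had 215, 220.2 and 213 CPM in KO libraries, against 84.1, 82.8 and 79.6 CPM in WT libraries. The insulin receptor (Insr) went the other way, with 68.2, 71.1 and 70.5 CPM in KO libraries, against 145, 143 and 149 CPM in WT libraries. Both receptors were separated by group in all 6 libraries. The ephrin receptor Epha2, on chromosome 4, was 2.54-fold higher and the GAS6 receptor Axl, on chromosome 7, 1.79-fold lower.

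Downstream of the insulin receptor, the adaptor Irs1 was at 39.2 ± 0.779 CPM in KO cells, against 81.4 ± 1.39 CPM in WT cells, and the 32 tested genes of the insulin, AKT and mTOR pathway had 11 higher and 11 lower, or 7 and 10 of 25 outside chromosomes 4, 7 and 9. MAP kinase feedback genes had 8 higher and 8 lower of 20, or 5 and 8 of 16 outside those chromosomes. The ERK phosphatase Dusp6 was at 121 ± 1.01 CPM in KO cells, against 244 ± 4.24 CPM in WT cells, and Spry2, an inhibitor of receptor kinase signalling, at 15.4 ± 0.363 CPM in KO cells, against 30.0 ± 0.903 CPM in WT cells, while the early response gene Ier3 was 1.69-fold higher. Of 35 tested semaphorins, ephrins and guidance receptors, 15 were higher and 13 lower. Sema7a, a membrane-anchored semaphorin, had 29.6, 28.8 and 29.6 CPM in KO libraries, against 145, 149 and 151 CPM in WT libraries. Sema3f, a secreted one, was 2.83-fold lower, and Sema4d with its receptor Plxnb1 was higher, 3.76-fold and 3.03-fold. Among 27 tested JAK-STAT genes, the inhibitors Socs2 (1.63-fold) and Cish (2.31-fold) were higher and Socs3 (1.77-fold) and Socs1 (1.88-fold) lower. Gas1, a hedgehog co-receptor, was at 13.8 ± 1.04 CPM in KO cells, against 44.5 ± 1.07 CPM in WT cells.

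Apoptosis genes were lower more often than higher, 18 against 6 of 30 tested (median -0.16), and 17 against 2 of 24 outside chromosomes 4, 7 and 9. The survival factor Bcl2 was lower, at 17.4 ± 0.828 CPM in KO cells, against 35.8 ± 2.65 CPM in WT cells, as was Ripk3, a kinase of necroptosis (1.78-fold), while the death effectors Bax (1.80-fold) and Bbc3 (1.67-fold), both on chromosome 7, were higher. The list holds genes that promote and genes that prevent cell death, so its median has no single meaning in these terms. Of 26 tested genes of the tricarboxylic acid cycle and pyruvate dehydrogenase, 14 were lower and 5 higher (median -0.11). Idh3a of isocitrate dehydrogenase was at 65.0 ± 1.68 CPM in KO cells, against 140.3 ± 2.10 CPM in WT cells, and Sdhd of succinate dehydrogenase at 72.8 ± 2.94 CPM in KO cells, against 129.8 ± 7.60 CPM in WT cells, both on chromosome 9, and Sdhb, on chromosome 4, was 1.47-fold higher.

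Of 14 tested genes of steroid hormone synthesis, 6 were lower and 2 higher (median -0.20), or 4 and 2 of 11 outside chromosomes 4, 7 and 9. Cyp11a1, which makes pregnenolone from cholesterol in steroid-producing tissues, had 0.870, 1.33 and 0.913 CPM in KO libraries, against 26.5, 26.5 and 28.5 CPM in WT libraries. Stra6, the receptor for retinol-binding protein, had 1.16, 0.695 and 0.514 CPM in KO libraries, against 13.4, 10.3 and 12.0 CPM in WT libraries. Both lie in the same stretch of chromosome 9 as Sema7a. The retinoic acid hydroxylase Cyp26b1 was 2.14-fold lower, and of 10 tested retinoid genes 5 were lower and 2 higher (median -0.40). The count of 2 was not stable: it was 0 in edgeR without KO library 1 or WT library 3 and 0 with DESeq2, and 1 without KO library 2, KO library 3 or WT library 1 and 1 with upper quartile scaling. Of 7 retinoid genes outside chromosomes 4, 7 and 9, 3 were lower and 2 higher. Among 16 tested phospholipase and eicosanoid genes, 4 were higher and 7 lower, or 3 and 6 of 14 outside chromosomes 4, 7 and 9. The secreted phospholipase Pla2g5, on chromosome 4, was at 16.9 CPM in KO cells, against 0.134 CPM in WT cells. That WT mean is under the level of 3 counts. Pla2g5 thus passed the filter on low counts only through its KO level, and its direction was fixed in advance. The prostaglandin E synthase Ptges was at 37.8 ± 0.916 CPM in KO cells, against 80.9 ± 1.96 CPM in WT cells. Of 61 tested chromatin genes, 23 were higher and 20 lower, but outside those chromosomes 13 were higher and 15 lower of 46. The acetyltransferase Kat2b was 2.47-fold lower and the demethylase Kdm4a 1.78-fold higher.

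Several groups of neighbouring genes differed together. These neighbourhoods and their genes were picked with values in view, so their counts are descriptions, and paralogs within them can share reads. Genes near 0 in 1 group passed the filter on low counts through the other group alone. Their direction was thus fixed in advance. In chr9:57910978-58262524, 7 of 8 tested genes were lower, including Sema7a, Cyp11a1, Stra6 and Pml, the organiser of nuclear bodies (2.04-fold). That count is near the share around it: of the 25 neighbouring tested genes from Scamp2 to Senp8, which include these, 21 were lower and 3 higher. The neighbour Stoml1, a stomatin-like membrane protein, went the other way with 151, 139 and 148 CPM in KO libraries, against 12.9, 11.2 and 13.7 CPM in WT libraries. In the chromosome 7 cluster that holds Trim5, known in primates as a restriction factor of retroviruses, all 6 tested genes were lower, with Trim30a at 4.13 ± 0.673 CPM in KO cells, against 26.4 ± 1.09 CPM in WT cells, and Trim30d at 0.192 ± 0.118 CPM in KO cells, against 14.6 ± 1.73 CPM in WT cells. All 4 tested Naip genes, inflammasome sensors of bacterial proteins on chromosome 13, were lower, with Naip6 at 2.01 ± 0.144 CPM in KO cells, against 22.4 ± 1.48 CPM in WT cells, and all 6 tested Ly6 genes of chromosome 15, with Ly6a (Sca-1) at 98.2 ± 1.56 CPM in KO cells, against 209 ± 4.98 CPM in WT cells. Ly6a2 had no count in KO libraries and was at least 59.9-fold lower against a floor of 3 counts over the group. Such bounds and the count intervals that follow cover counting error only.

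The Tmprss11 proteases of chromosome 5 had 3 of 3 tested genes higher, with Tmprss11b at 21.1 ± 0.950 CPM in KO cells, against 0.824 ± 0.129 CPM in WT cells. Tmprss11a and Tmprss11f passed the filter only through their KO level, so their direction was fixed in advance. On chromosome 3, all 4 tested genes of the small proline-rich and involucrin cluster, which build the cornified envelope of skin, were higher. Sprr1a had 97.8, 104 and 92.2 CPM in KO libraries, against 16.3, 20.8 and 21.03 CPM in WT libraries. Sprr1b had 43.8, 43.0 and 39.0 CPM in KO libraries, against 0.954, 1.02 and 0.511 CPM in WT libraries. Both were separated in every library. In the keratin cluster of chromosome 15, from Krt1 to Krt18, 1 of 6 tested genes was higher and 4 were lower: Krt8 was at 144 ± 2.56 CPM in KO cells, against 50.3 ± 4.34 CPM in WT cells, and its partner Krt18 at 49.6 ± 2.06 CPM in KO cells, against 67.3 ± 1.58 CPM in WT cells, so that the genes of this pair differed in opposite directions, and Krt76, 7.54-fold lower, was among the others lower. Among granule protease genes of chromosome 14, all 3 tested were lower, with mast cell chymase Cma1 at 1.06 ± 0.148 CPM in KO cells, against 14.3 ± 1.12 CPM in WT cells.

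Chromosome 13 held more clusters with one direction. Of 11 tested Serpinb genes, which encode intracellular protease inhibitors, 10 were higher and 1 lower, with Serpinb9e at 196 ± 8.004 CPM in KO cells, against 31.4 ± 1.09 CPM in WT cells, and Serpinb6a at 536 ± 5.90 CPM in KO cells, against 356 ± 13.9 CPM in WT cells. Of 8 genes of the prolactin family, hormones of the rodent placenta, 5 were tested, and all 5 were higher. Each was close to or at 0 in WT cells and passed the filter only through its KO level. The direction of this count was therefore fixed in advance. Prl8a9 had 745 counts in KO and 2 in WT libraries together, a ratio of 373 (95% interval 103 to 3080). Prl2c2, which encodes proliferin, was at 18.8 ± 2.44 CPM in KO cells, against 0.211 ± 0.237 CPM in WT cells. The aldo-keto reductase Akr1c18, which inactivates progesterone, was at 93.4 ± 4.58 CPM in KO cells, against 24.5 ± 1.55 CPM in WT cells.

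On chromosome 4, genes close to or at 0 in WT cells were measured in KO cells. In chr4:152476706-154162306, all 7 tested genes were higher: Wrap73 had no count in WT libraries and was at least 94.1-fold higher, and Lrrc47 was at 31.8 ± 4.02 CPM in KO cells, against 0.0946 ± 0.118 CPM in WT cells. The groups were apart for both of these genes. All of the 7 but Tprgl passed the filter only through their KO level, so their direction was fixed in advance. In chr4:149585111-150201135, 8 of 9 tested genes were higher and none lower. Most genes around both regions were higher too. Of the 25 neighbouring tested genes from Kcnab2 to Fndc10, which include the first region, 19 were higher and 1 lower. The second region spans the 25 from Fbxo2 to Gpr157 and the 25 from Slc2a7 to Chd5, each with 22 higher. Clstn1, a calsyntenin, had 57.6, 62.8 and 62.6 CPM in KO libraries, against 0.835, 1.48 and 1.36 CPM in WT libraries. The secreted carbonic anhydrase Car6 had 63.3, 65.3 and 65.9 CPM in KO libraries, against 2.03, 1.97 and 2.10 CPM in WT libraries. Of the genes between them, the mitochondrial carrier Slc25a33 was at 14.8 ± 0.926 CPM in KO cells, against 0.0767 ± 0.0865 CPM in WT cells, and the lipid kinase Pik3cd was higher by less (1.81-fold).

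**Figure D4:**
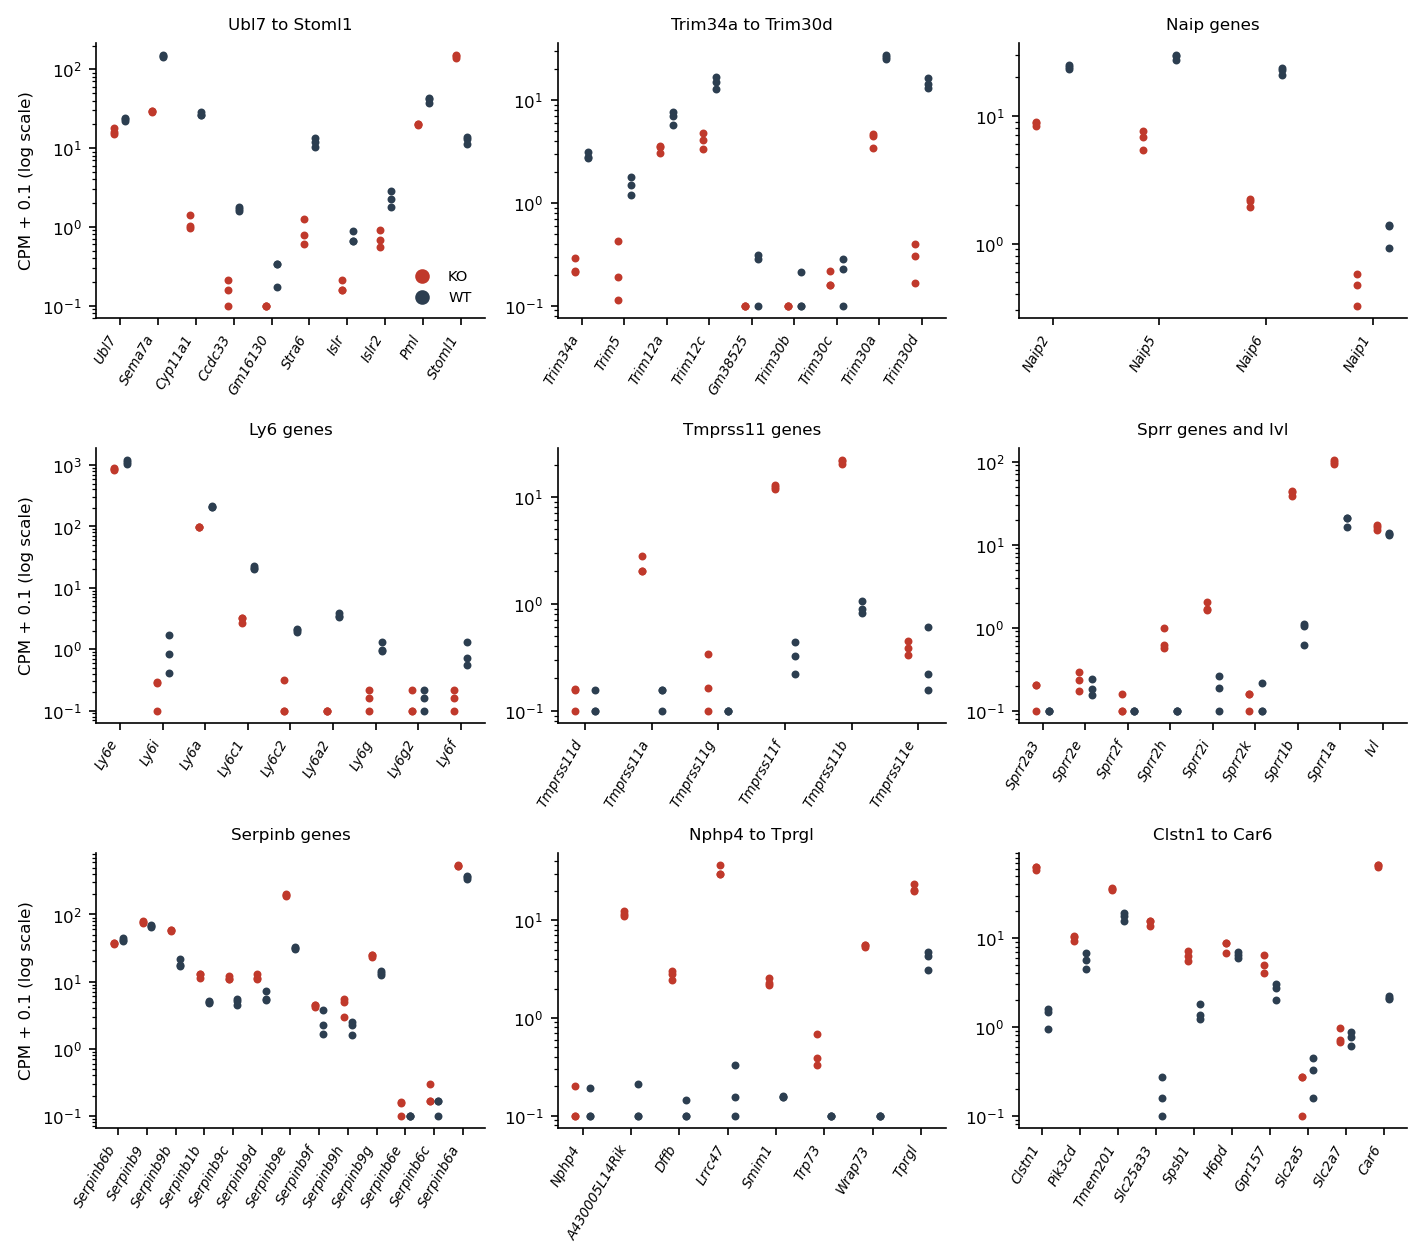
CPM plus 0.1 on a log axis for genes of 9 neighbourhoods in chromosome order, with each of the 3 KO libraries in red (left) and each of the 3 WT libraries dark (right). Within most panels the tested genes differ in one direction, with Stoml1 (KO 139 to 151 CPM, WT 11.2 to 13.7 CPM) going against its neighbours.

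The differences were also uneven over whole chromosomes. The median log2 fold change was 0.49 on chromosome 4, where 540 of 752 tested genes were higher and 66 lower, 0.24 on chromosome 7 (478 higher and 180 lower of 930) and -0.25 on chromosome 9 (120 higher and 366 lower of 665). On every other chromosome from 1 to X it lay between -0.12 and 0.12. Stretches of 25 neighbouring tested genes showed that the shift covered chromosome 4 widely but only parts of the others. On chromosome 7 the first 525 genes, up to position 81829498, had a median of 0.47 with 362 higher and 34 lower, and the remaining 405 a median of -0.05. On chromosome 9 the 350 genes from 20965952 to 85847057 had a median of -0.41 with 21 higher and 251 lower, and the 265 genes beyond them one of -0.01. On chromosome 5 the first 175 genes, up to 38503147, had a median of -0.43 with 9 higher and 133 lower, and the remaining 592 one of -0.03. Parts of other chromosomes also stood apart. From Ccdc142 to Rybp on chromosome 6 the stretches had medians of 0.311 to 0.515. From Mrpl15 to Ikbke on chromosome 1 they had medians of -0.268 to -0.116. Of 472 stretches, 43 had a median of 0.4 or more, 25 of them on chromosome 4 and 16 on chromosome 7, and 14 had one of -0.4 or less, 8 of them on chromosome 9 and 4 on chromosome 5. The boundaries were set after the values were seen.

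**Figure D5:**
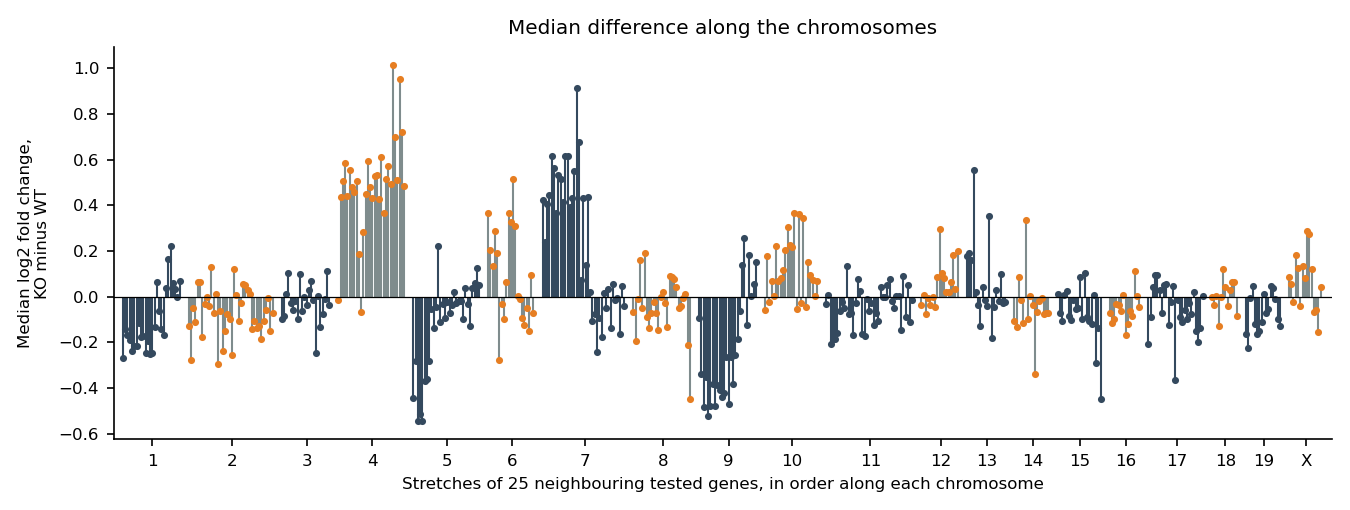
Median log2 fold change (KO minus WT) of 472 stretches of 25 neighbouring tested genes, in order along chromosomes 1 to 19 and X, 1 point per stretch. Chromosome 4 lies above 0 over nearly its whole length (median 0.49), as does the first part of chromosome 7, and parts of chromosomes 5 and 9 lie below.

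These chromosomes enter the gene groups above. They also hold single named genes, not all marked with their place. Examples are Klf4, Per3, Epha2 and Cdca8 on chromosome 4, Ftl1, Ercc1, Igf1r and Mef2a on 7, and Chek1, Ccnb2 and Bace1 on 9. Jun on chromosome 4 and Axl on 7 went against the direction of their chromosome. Whether such genes differ by more than their neighbours was not tested. Without chromosomes 4, 7 and 9, 9746 genes remained, of which 2773 were higher and 3277 lower, and 251 were at least 2-fold higher and 393 at least 2-fold lower. These genes still include the first 175 of chromosome 5, with their median of -0.43. The hypoxia list then had 6 higher and 3 lower of 13 tested, amino acid transporters 10 and 2 of 18, ribosome biogenesis 15 and 5 of 26, and autophagy 17 and 7 of 29. Of 329 tested zinc finger Zfp genes, 124 were higher and 80 lower, but outside the 3 chromosomes the counts were 53 higher and 66 lower of 211. The labels do not say that KO and WT cells come from the same animals or from one clone. The Mef2d genotype and any other difference between the cells of the groups, separate clones included, therefore cannot be told apart in these libraries, for single genes as for lists.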

How the data were processed

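Expected counts per gene were deposited by the authors for 17 libraries, and the 6 of the KO and WT table were used. FastQC, HISAT, RSEM and build mm10 are named, without versions or roles, per the submitters' processing notes. For the annotation and gene filters, nothing is given in the sources used here. RSEM divides shared reads by a model, so near-identical paralogs are uncertain, as are overlapping and antisense genes, since use of strand in counting is not stated. Expected counts were rounded and fitted with edgeR 4.0.16 (limma 3.58.1, R 4.3.3): TMM scaling, filterByExpr, quasi-likelihood F test without covariates, and Benjamini-Hochberg adjustment over all 12093 tested genes, called under 0.05. The fit was tested on simulated data. CPM use TMM-scaled library totals, and marker sums the unscaled totals. A total of 25 symbols that a spreadsheet had turned into dates were restored, and 99.7% of identifiers matched RefSeq GRCm38.p6. The common biological coefficient of variation was 0.034. A group of 3 libraries with a count of 0 was taken at 3 counts in total for a bound on the fold, and the 95% intervals of count ratios are exact. The gene lists, comparisons and the part analysed were chosen with earlier results of these data known.

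Named genes are the 15 largest called differences in each direction among genes reaching 10 CPM in every library of the higher group without overlap, the 8 largest in each direction among genes averaging 200 CPM, up to 4 called members of each list in each direction, and Mef2d, Ppargc1a and Jun. Alternatives were other scalings, filters, unrounded values, DESeq2 1.42.0, a replicate block and leaving out each library. A few genes and 1 gene list are not reported here.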

Additional observations from a re-analysis of the deposited data

How the results depend on the processing

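Mef2d and the 148 other named genes with a fit kept their direction under each of the 14 alternatives, 6 of which left out a library, wherever they were tested. The only calls lost were those of Jun, Zwint and Pold1 given above. Scaling moved the median of all genes by no more than 0.03. With DESeq2, 3510 genes were higher and 3480 lower. A filter of at least 10 CPM in 3 libraries, which tests fewer genes, left 200 genes at least 2-fold higher and 205 at least 2-fold lower. Without a filter the shares with a MEF2 element were 3.14% of the genes at least 2-fold higher and 3.11% of those at least 2-fold lower. The 10 CPM filter also left 3 lower MEF2 targets, 4 lower growth factors and 9 higher guidance genes.

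The chromosome medians kept their signs. That of chromosome 4 was 0.48 with upper quartile scaling and without a filter, 0.51 with TMM factors from genes outside chromosomes 4, 7 and 9, and 0.52 with the 10 CPM filter. That of chromosome 7 was 0.27 with those TMM factors and 0.21 without a filter. That of chromosome 9 was -0.26 with upper quartile scaling and the 10 CPM filter, -0.22 with those TMM factors and without a filter, and -0.25 with unrounded values. The cause of these small shifts was not tested.

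Leaving out each library in turn gave 3622 to 3896 genes higher and 3617 to 3828 lower, 438 to 483 at least 2-fold higher and 498 to 554 at least 2-fold lower. The log2 fold change of Mef2d ranged from -0.63 to -0.57, and the medians from 0.48 to 0.50 on chromosome 4, 0.23 to 0.24 on chromosome 7 and -0.26 to -0.25 on chromosome 9. The share of genes with a MEF2 element ranged from 1.79% to 2.41% among those at least 2-fold higher and from 2.73% to 3.23% among those at least 2-fold lower.

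Libraries with the same replicate number did not all deviate together: their deviations from the group means correlated at -0.155, 0.039 and 0.401 over 8906 genes, and KO library 1 correlated best with WT library 2 (0.30), so that the numbers were not taken as a pairing. A replicate block gave 3995 genes higher, 3967 lower and a log2 fold change of -0.60 for Mef2d. The counts outside chromosomes 4, 7 and 9 were an alternative chosen after seeing the data.

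At this depth, genes under 0.170 to 0.181 CPM in a library rest on fewer than 3 counts.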
